A study of Homo sapiens with 24 samples.

Results

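The small RNA of HEK293 cells overexpressing lamin B2 was compared directly with that of cells overexpressing lamin B1. The series holds 24 libraries, 12 of small RNA and 12 of ATAC-seq, an assay of open chromatin, and this comparison rests on 6 of them: 3 small RNA libraries labelled LMNB2 and 3 labelled LMNB1. All 175946 features of the small RNA count table were considered, and the 33893 that passed a filter on low counts were tested. HEK293 is an established human embryonic kidney line, obtained here from ATCC and labelled wild type in every group. The 2 groups differ in the overexpressed gene, LMNB2 against LMNB1. The other 6 small RNA libraries were 3 from cells overexpressing LMNA and 3 from cells overexpressing GFP (eGFP in the design). They entered the filter on low counts, the scaling and the estimate of the spread, but not the contrast. Their levels are given for context. RNA was isolated with the mirVana PARIS kit, which enriches small RNAs. The vector, its promoter, the time after overexpression began and the share of cells expressing it are not given in the sources used here. The labels do not state that replicates came from separate cultures, so the p-values measure only the spread between these libraries, which may be technical.

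Lamins B1 and B2 are intermediate filament proteins encoded by separate genes, and they stay farnesylated and attached to the inner nuclear membrane. Together with the A-type lamins they form the nuclear lamina, which contacts gene-poor, weakly transcribed chromatin at the nuclear rim. Small RNAs come from several transcription systems: RNA polymerase III makes tRNA, 5S rRNA, 7SL, U6, Y and vault RNA, while RNA polymerase II makes most spliceosomal RNAs and the primary transcripts from which microRNAs are cut. A microRNA pairs with target mRNAs mainly through its seed, bases 2 to 8 from the 5′ end.

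The mature microRNAs on which the results turn are shown here from RefSeq (GRCh38.p14), 5′ to 3′, with the seed in capitals. Each arm was counted in an interval that extends 25 bases beyond both its ends, so reads of the opposite arm can be included. The first 4 are the arms whose intervals fell in LMNB2, and the next 3 are arms whose intervals rose. The other arm whose interval rose, miR-7108-5p, comes from the same hairpin as miR-7108-3p. That hairpin lies within the overexpressed LMNB2 gene, and its reads cannot be told from those of the LMNB2 transcript.
let-7e-3p: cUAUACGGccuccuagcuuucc
miR-193a-3p: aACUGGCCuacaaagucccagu
miR-2110: uUGGGGAAacggccgcugagug
miR-92b-3p: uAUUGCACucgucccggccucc
miR-3651: cAUAGCCCggucgcugguacauga
miR-5088-3p: uCCCUUCUuccugggcccuca
miR-7108-3p: aCCCGCCCgucuccccacag
The remaining sequences show 2 abundant arms and some members of 3 seed families whose measured members were all lower in LMNB2. miR-92a-3p and miR-32-5p share the seed AUUGCAC with miR-92b-3p, the let-7 arms share GAGGUAG, and miR-16-5p shares AGCAGCA with miR-15a-5p.
miR-423-3p: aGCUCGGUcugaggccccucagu
miR-10a-5p: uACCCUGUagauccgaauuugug
miR-92a-3p: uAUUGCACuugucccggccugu
miR-32-5p: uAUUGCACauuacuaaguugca
let-7a-5p: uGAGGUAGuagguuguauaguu
let-7i-5p: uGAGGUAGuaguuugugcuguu
miR-16-5p: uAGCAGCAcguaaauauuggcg
miR-15a-5p: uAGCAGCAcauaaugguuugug

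Total counts were 156894635, 153747548 and 167068016 in the LMNB1 libraries and 142637218, 142686105 and 132507051 in the LMNB2 libraries, within a range of 132507051 to 195074742 over all 12; a read over overlapping intervals can be counted in each. All 6 microRNAs listed as abundant in HEK293 (MIR10A, MIR10B, MIR17, MIR92A1, MIR16-1 and MIR21) were tested, with summed counts of 18679 to 22815 in LMNB1 and 9978 to 13569 in LMNB2. Of 16 microRNA loci listed as markers of other cell types, 3 passed the filter (MIR9-1, MIR126 and MIR200C) and 7 had no count in any of the 6 libraries, among them MIR451A, MIR206 and MIR302A. The summed counts of that list were 313 to 404 in LMNB1 and 198 to 242 in LMNB2, and the part of these levels in the results below was not tested. One GFP library, replicate 3, stood apart, with a median microRNA level 1.27 log2 units above the mean of the 6 libraries compared.

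The overexpressed genes were checked first. NONHSAG024437.2, a long noncoding RNA (lncRNA) interval over LMNB2 (chromosome 19, 2431529 to 2456974, GRCh38), held 118, 123 and 107 counts in LMNB1 and 55785, 59095 and 51316 in LMNB2. Its log2 fold change was 8.99 ± 0.30 (SE, n = 3 per group; edgeR quasi-likelihood test, Benjamini-Hochberg adjusted p = 5.74e-12). Over LMNB1, the LMNB1-DT interval on chromosome 5 from 126777177 to 126778255 held 2953, 3152 and 3028 counts in LMNB1 and 66, 55 and 56 in LMNB2, a log2 fold change of -5.53 ± 0.24 (adjusted p = 7.72e-11, edgeR). The libraries thus fall as labelled at both loci. The 2 LMNB1-DT intervals that start at 126751938 and 126751948, which lie mostly beyond the gene, had log2 fold changes of 0.03 and 0.03, and an interval over LMNA, lnc-MEX3A-1, one of 0.49 ± 0.40 (adjusted p = 0.579, edgeR). miR-7108 lies within LMNB2 on its strand (chromosome 19, 2434914 to 2434933 for the 3p arm), and the interval over that arm held 4, 6 and 1 counts in LMNB1 and 3088, 3096 and 2445 in LMNB2. As both lie on the same strand, reads of the overexpressed LMNB2 transcript and of miR-7108 cannot be told apart in these counts. The ATAC-seq window over that interval averaged 7.38 CPM in LMNB1 and 6730 CPM in LMNB2. Whether mature miR-7108 rose was not tested. In all, 8 called features over LMNB2 were higher and 3 over LMNB1 were lower, and these 11 were set aside from the statements on lncRNA below.

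Across all features, 742 of 33893 (2.19%) were called at an adjusted p below 0.05, 618 higher in LMNB2 (1.82%) and 124 lower (0.366%). At an unadjusted p below 0.05 there were 3316 higher (9.78%) and 2113 lower features (6.23%). The 3 LMNB2 libraries lay wholly above the 3 LMNB1 libraries at 15.6% of features and wholly below at 14.1%, and the median log2 fold change over all features was -0.01. A fit of the 6 compared libraries alone called many more, 2532 higher (7.47%) and 2106 lower (6.21%), and 740 of the 742 calls were among them with the same direction. Without GFP replicate 3 the fit of the other 11 called 1309 higher and 856 lower, and with scaling to total counts alone 48 higher and 13 lower. Leaving out any 1 of the LMNB1 or LMNB2 libraries left 144 to 215 calls, and leaving out LMNA replicate 1 left 484. Intervals in this table overlap, so the 742 calls fall in 264 groups of overlapping intervals and are not independent.

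MicroRNAs were lower in LMNB2 across nearly the whole class, though few single members passed the test. Of 5142 microRNA intervals 477 were tested, and 402 of them had a lower mean in LMNB2, with a median log2 fold change of -0.55 against -0.01 over all features. Only 6 fell and 6 rose by the test over all features (1.26% each, against 0.366% and 1.82% of all features), and the intervals over miR-7108 are among those that rose. The 3 LMNB2 libraries lay wholly below the 3 LMNB1 libraries at 279 of the 477 (58.5%, against 14.1% of all features). The fit of the 6 libraries called 214 lower and 28 higher (6.21% and 7.47% of all features). Without the filter on low counts the median was 0, since most microRNA intervals hold few counts or none. The median level of the class, relative to the mean of the 6 libraries, was 0.27, 0.21 and 0.36 log2 units in LMNB1 and -0.20, -0.26 and -0.30 in LMNB2. It was 0.25, 0.48 and 0.17 in LMNA, so the LMNB2 libraries lay below both other lamins. The GFP libraries were spread from -0.30 to 1.27, on both sides. In bulk RNA a lower level per cell and fewer cells holding an RNA cannot be told apart, here and in the results that follow.

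Counted by mature arm, 251 arms were tested, 231 of them lower in LMNB2, with a median of -0.60. Arms from the 5′ side of the hairpin (101, median -0.69) and from the 3′ side (109, median -0.57) both had medians below 0. The most abundant arm was miR-423-3p, at 175, 179 and 177 CPM in LMNB1 (CPM, counts scaled to library size with TMM factors) and 97.5, 92.7 and 96.6 CPM in LMNB2. The groups do not overlap and each is tight, but the GFP libraries averaged 214 CPM and the log2 fold change of -0.89 ± 0.24 did not pass the test (adjusted p = 0.0688, edgeR). miR-10a-5p, encoded in the HOXB cluster and typical of HEK293, had 75.2, 61.7 and 71.5 CPM in LMNB1 and 44.1, 43.9 and 37.3 CPM in LMNB2 (log2 fold change -0.74 ± 0.54, adjusted p = 0.55, edgeR). Here too all 3 LMNB2 libraries lay below all 3 LMNB1 libraries.

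Of the called arms, miR-193a-3p had the lowest adjusted p outside miR-7108. It had 0.604, 0.618 and 0.563 CPM in LMNB1 and 0.302, 0.307 and 0.306 CPM in LMNB2, a log2 fold change of -0.94 ± 0.19 (adjusted p = 0.0154, edgeR). Its groups were close to a factor of 2 apart with no overlap. The interval of let-7e-3p, cut from the miR-99b/let-7e cluster on chromosome 19, had 4.12, 4.28 and 4.15 CPM in LMNB1 and 2.21, 1.98 and 2.12 CPM in LMNB2 (-0.99 ± 0.24, adjusted p = 0.0408, edgeR). A MIRLET7E interval of 127 bases, which contains it, had 4.12, 4.28 and 4.15 against 2.23, 1.98 and 2.12 CPM. The fall can thus not be assigned to the 3p arm rather than to the rest of the hairpin. miR-99b-3p, from the same cluster, had a log2 fold change of -0.30 ± 0.31 and overlapping groups (35.4, 34.7 and 42.6 against 35.4, 29.0 and 27.1 CPM). miR-2110, within CCDC186, had 2.58, 2.55 and 2.48 CPM in LMNB1 and 1.46, 1.25 and 1.62 CPM in LMNB2 (-0.81 ± 0.18, adjusted p = 0.0258, edgeR). miR-92b-3p had 3.97, 3.48 and 3.55 CPM in LMNB1 and 2.50, 1.91 and 1.88 CPM in LMNB2 (-0.80 ± 0.20, adjusted p = 0.0438, edgeR). Each of these 4 calls was lost in 6 to 9 of the 12 fits that left out 1 library.

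miR-92b-3p belongs to the AUUGCAC seed family printed above, whose 3 tested arms had log2 fold changes from -1.44 to -0.62. For miR-32-5p the values were 0.133, 0.196 and 0.139 CPM in LMNB1 and 0.0543, 0.064 and 0.0284 CPM in LMNB2. The 7 tested let-7 family arms with the seed GAGGUAG were all lower, with a median of -0.76, and 6 of the 7 had groups that did not overlap. The miR-15/16 family, known for lowering cyclin and BCL2 mRNAs, had 4 of 4 arms lower with a median of -0.62. The family with the seed AAAGUGC, here miR-106b-5p, miR-20b-5p and miR-93-5p, had a median of -0.51. The median of all arms was -0.60, and no difference between these families and the other arms was tested. Because an arm's interval can hold reads of the opposite arm, these values cannot be assigned to the arm with the seed alone.

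The miR-17-92 cluster, transcribed as MIR17HG on chromosome 13, was lower throughout but had no call. MIR17HG had 50.3, 48.5 and 52.3 CPM in LMNB1 and 32.9, 34.7 and 33.2 CPM in LMNB2, a log2 fold change of -0.59 ± 0.24 (adjusted p = 0.233, edgeR). Its microRNA intervals ranged from -0.26 for MIR17 to -1.04 for MIR19A, with MIR92A1 at -0.62 and 30.1, 27.7 and 30.9 against 19.4, 20.3 and 17.9 CPM. The MIR17HG interval contains the microRNAs, so its counts are in part theirs, and the groups did not overlap at either MIR17HG or MIR92A1.

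Few microRNAs were higher. miR-3651 had 0.749, 0.753 and 0.841 CPM in LMNB1 and 1.28, 1.21 and 1.24 CPM in LMNB2 (0.66 ± 0.15, adjusted p = 0.0281, edgeR), and it overlaps SNORA84, an H/ACA small nucleolar RNA (snoRNA). miR-5088-3p, within PRMT1 on chromosome 19, had 0.0121, 0.0367 and 0.0522 CPM in LMNB1 and 0.0905, 0.122 and 0.128 CPM in LMNB2 (1.43 ± 0.36, adjusted p = 0.0498, edgeR). These calls were lost in 7 and 10 of the 12 fits without 1 library.

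**Figure D1:**
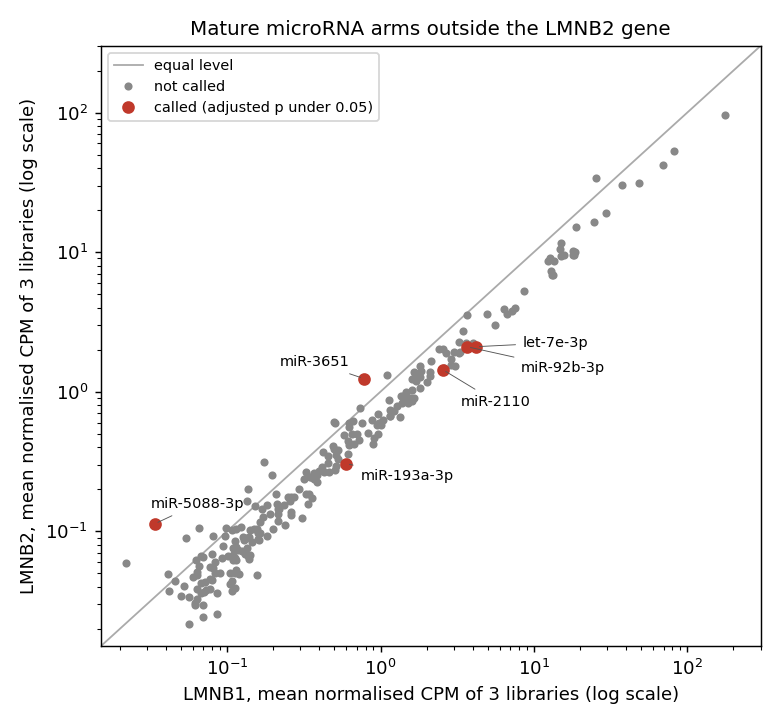
Mean CPM of the interval of each tested mature microRNA arm in the 3 LMNB1 libraries (x axis, log scale) and the 3 LMNB2 libraries (y axis, log scale), without miR-7108. Each point is the interval of 1 arm, which can include reads of the opposite arm, and the called arms are named. Most points lie below the line of equal level, as do 231 of the 251 arms counted with miR-7108.

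Nuclear tRNA intervals were also mostly lower. Of 463 tested, 406 were lower in LMNB2 with a median of -0.35, and 207 had all LMNB2 libraries below all LMNB1 libraries (44.7%, against 14.1% of all features). At the adjusted threshold 5 fell (1.08%, against 0.366% of all features) and none rose (against 1.82%). At an unadjusted p below 0.05 (edgeR) 1 was higher and 80 were lower, against 9.78% and 6.23% of all features. tRNA-Thr-AGT-5-1 (chromosome 17, 8139427 to 8139550) had 1.20, 1.37 and 1.37 CPM in LMNB1 and 0.706, 0.563 and 0.661 CPM in LMNB2. Its log2 fold change was -1.02 ± 0.16 (adjusted p = 0.0033, edgeR), and the call held in every fit that left out a library. tRNA-Arg-TCG-4-1 (1.66, 2.29 and 1.90 against 1.01, 1.05 and 1.24 CPM) fell by 0.82 on the log2 scale (adjusted p = 0.0229, edgeR), a call lost in 5 of the 12 such fits. tRNA-Ala-AGC-1-7 (3.87, 2.83 and 4.94 against 2.36, 1.89 and 2.11 CPM) fell by 0.87 (adjusted p = 0.0476, edgeR), lost in 8 of the 12.

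The amino acid acceptor families were not equal. Initiator methionine tRNA, which starts every protein chain, had the lowest median at -0.86 (9 of 9 lower), followed by glutamine at -0.66 (23 of 23) and alanine at -0.59 (43 of 43). The most abundant interval of tRNA-iMet-CAT-1-6 (chromosome 6) had 25.8, 22.4 and 28.9 CPM in LMNB1 and 16.4, 14.7 and 20.5 CPM in LMNB2, with a log2 fold change of -0.58 ± 0.24 (adjusted p = 0.23, edgeR). Only 1 of the 9 initiator intervals had groups that did not overlap, and the median moved from -0.57 without LMNB2 replicate 2 to -1.15 without LMNB2 replicate 3. At the other end, aspartate tRNA had a median of 0.29 (13 of 15 higher) and histidine 0.17 (10 of 10 higher), with no call in either. tRNA-Asp-GTC-1-2 (chromosome 1, 161463009 to 161463130) had 108, 118 and 121 CPM in LMNB1 and 153, 130 and 153 CPM in LMNB2 (0.33 ± 0.22, adjusted p = 0.49, edgeR). Gene copies of a tRNA carry near-identical counts, and how reads matching several copies were assigned is not given in the sources used here.

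The other RNA polymerase III products did not move as one. Intervals named as vault RNAs (VTRNA), a class set by name alone, were lower at 4 of 4 with a median of -0.51. VTRNA2-1 had 567, 539 and 842 CPM in LMNB1 and 353, 359 and 429 CPM in LMNB2 (-0.77 ± 0.28, adjusted p = 0.173, edgeR), and VTRNA1-2 a log2 fold change of -0.57 ± 0.27 (adjusted p = 0.298). Of these 2, VTRNA2-1 had groups that did not overlap. RN7SL1, the RNA core of the signal recognition particle, was on the other side, with 15.2, 17.3 and 13.8 CPM in LMNB1 and 21.4, 21.3 and 20.6 CPM in LMNB2 (0.45 ± 0.21, adjusted p = 0.289, edgeR). The 9 U6 intervals were all higher (median 0.22), RNY5 had a log2 fold change of 0.48 ± 0.25 and RNY3 one of -0.20 ± 0.27, and RN7SK, the RNA that holds P-TEFb inactive, one of -0.17 ± 0.25. No 7SL, U6, Y or vault interval was called.

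The SNAR family, small noncoding RNAs of primates, had a median of -0.65 with 34 of 34 intervals lower and no call. That value rests on LMNB1 replicate 2. SNAR-A1 had 47.1, 119 and 52.8 CPM in LMNB1 and 42.4, 44.7 and 46.9 CPM in LMNB2, and without LMNB1 replicate 2 the family's median was -0.20.

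Ribosomal RNA, U1, H/ACA snoRNA and small Cajal body RNA (scaRNA) were higher in LMNB2 in many of their members. Ribosomal RNA intervals other than the 5S gene array (269 tested) had a median of 0.37, 10 rose (3.72%, against 1.82% of all features) and none fell at the adjusted threshold (59 higher and none lower at an unadjusted p below 0.05, edgeR). Of the 10 that rose, 9 are dispersed 5S-related intervals, and the first of them, on the X chromosome from 41292773 to 41292929, had 20.1, 20.6 and 20.3 CPM in LMNB1 and 36.2, 43.0 and 38.8 CPM in LMNB2 (0.95 ± 0.21, adjusted p = 0.0276, edgeR). That call was lost in 6 of the 12 fits without 1 library, and the called 5S-related intervals had nearly the same counts as each other and are not separate observations. The median of all 269 was 0.20 without the filter on low counts. The median of the 137 dispersed 5S-related intervals was 0.36, and 0.22 without LMNB2 replicate 1. The 5S gene array itself had a median of 0.14 with 1 of 17 intervals separated, which became -0.02 without that library.

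U1 RNA pairs with the 5′ splice site, and RNVU1 genes encode its variants. RNVU1-1 had 29.0, 33.4 and 29.7 CPM in LMNB1 and 47.7, 56.1 and 56.9 CPM in LMNB2 (0.80 ± 0.20, adjusted p = 0.0475, edgeR). Over 50 intervals of the U1 family, 42 were higher with a median of 0.46 and 6 rose (12%, against 1.82% of all features). Some of the risen intervals had nearly the same counts. RNVU1-19 had 27.1, 31.7 and 28.2 CPM in LMNB1 and 44.6, 54.7 and 52.9 CPM in LMNB2, close to RNVU1-1. The 6 are therefore not all separate observations. The call of RNVU1-1 was lost in 9 of the 12 fits without 1 library. Other spliceosomal RNAs did not move alike: RNU11 and RNU12, of the minor spliceosome, had log2 fold changes of -0.11 ± 0.28 and 0.10 ± 0.23.

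H/ACA snoRNAs guide pseudouridylation and C/D snoRNAs guide 2′-O-methylation. Of 131 H/ACA intervals 102 were higher, with a median of 0.23, 5 rose (3.82%, against 1.82% of all features) and none fell (26 higher and 2 lower at an unadjusted p below 0.05). SNORA67, in an intron of EIF4A1, had 3.58, 3.46 and 3.29 CPM in LMNB1 and 6.65, 7.70 and 6.19 CPM in LMNB2 (0.99 ± 0.21, adjusted p = 0.0184, edgeR). SNORA49 in EP400 rose by 0.87 ± 0.18 (adjusted p = 0.0169, edgeR), from 0.568, 0.453 and 0.423 to 0.808, 0.883 and 0.988 CPM. Among 27 scaRNAs, which guide modification of spliceosomal RNAs, 3 rose (11.1%, against 1.82% of all features) and none fell (7 higher and none lower unadjusted). SCARNA12 in PHB2 had 2.97, 3.39 and 2.66 CPM in LMNB1 and 5.23, 5.30 and 5.64 CPM in LMNB2 (0.84 ± 0.18, adjusted p = 0.0248, edgeR), and SCARNA18 and SCARNA10 rose by 0.78 and 0.69. The calls of SNORA67, SNORA49 and the 3 scaRNAs were lost in 4 to 6 of the 12 fits without 1 library.

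C/D snoRNAs were balanced, with a median of 0.03 over 194 intervals and no call (18 higher and 6 lower at an unadjusted p below 0.05, edgeR). Among them SNORD3A, the U3 RNA of early rRNA cleavage, had 48.0, 54.2 and 50 CPM in LMNB1 and 84.1, 87.2 and 84.4 CPM in LMNB2 (0.75 ± 0.20, adjusted p = 0.0621, edgeR). SNORD118, the U8 RNA needed for 28S rRNA, was on the other side at 481, 490 and 446 against 374, 377 and 365 CPM (-0.35 ± 0.22, adjusted p = 0.463, edgeR). Both had groups that did not overlap. Mitochondrial tRNA (22 intervals, median -0.12) and the other mitochondrial features (24 intervals, median 0.23) had no call, with none and 3 higher and none lower at an unadjusted p below 0.05.

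**Figure D2:**
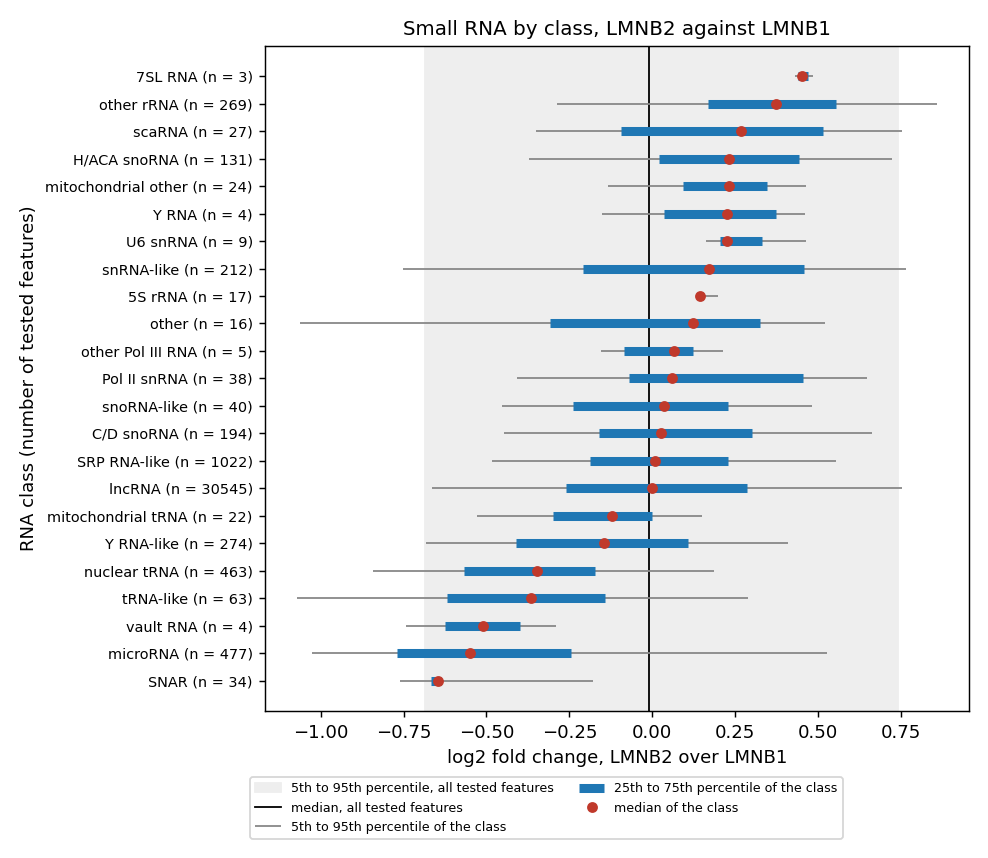
Log2 fold change of LMNB2 over LMNB1 by RNA class; points are the class medians, thick bars run from the 25th to the 75th and thin bars from the 5th to the 95th percentile of tested members, and the grey band is the same for all tested features. MicroRNA, SNAR, vault RNA and nuclear tRNA lie below 0, with medians from -0.65 to -0.35, while 7SL and other rRNA lie above, at 0.45 and 0.37.

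The plot of levels by library sets 6 of these groups beside the GFP and LMNA libraries. Nuclear tRNA stood at 0.11, 0.17 and 0.23 in LMNB1, 0.25, 0.13 and 0.33 in LMNA and -0.15, -0.28 and -0.07 in LMNB2. Other rRNA stood at -0.20, -0.15 and -0.22 in LMNB1 and 0.31, 0.20 and 0.10 in LMNB2, with LMNA between 0.05 and 0.23. The tRNA level of LMNB2 was thus below both lamins, whereas its rRNA level overlapped that of LMNA.

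**Figure D3:**
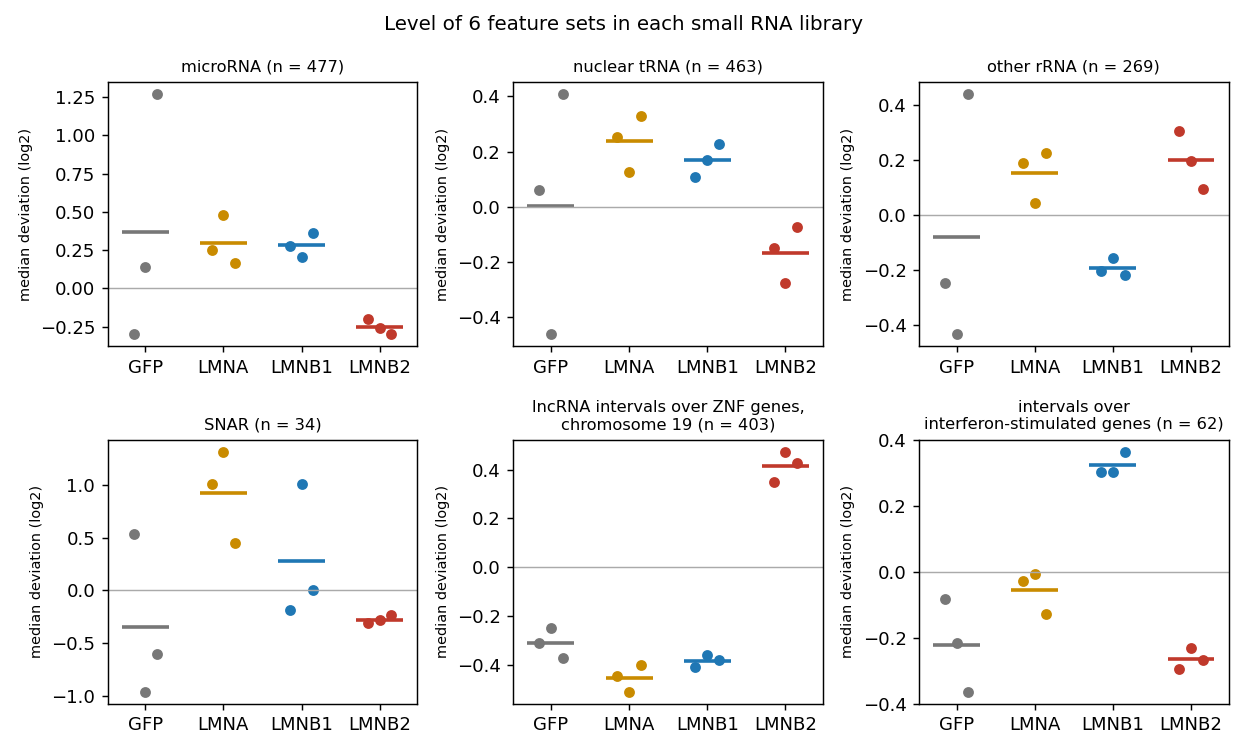
Median level of 6 groups of features in each of the 12 small RNA libraries, as log2 deviation from the mean of the LMNB1 and LMNB2 libraries; points are libraries and bars are group means. Zinc finger gene intervals on chromosome 19 are above 0 only in the 3 LMNB2 libraries of the 12 (0.35 to 0.47), and interferon-stimulated gene intervals only in the 3 LMNB1 libraries (0.30 to 0.37).

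Most calls, 676 outside the lamin genes, were lncRNA intervals, 568 higher and 108 lower, or 184 and 50 when overlapping calls were counted once. Many such intervals lie over protein-coding genes, and without strand their reads cannot be separated from those of the host gene. Chromosome 19 stood out. Of its 1773 tested features 293 rose, 8 of them over LMNB2, and 2 fell, and the median was 0.47. On all other chromosomes together 325 of 32120 rose (1.01%) and 122 fell, with a median of -0.03. Chromosomes 22, 20, 16, 17 and 21 had medians of 0.30, 0.25, 0.20, 0.17 and 0.15, and every other chromosome lay between -0.13 and 0.05.

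Chromosome 19 carries the large clusters of KRAB zinc finger (ZNF) genes, many of which encode repressors of transposable elements. This grouping was made after the values were seen. Of 403 tested lncRNA intervals over ZNF genes there, 391 were higher, with a median of 0.78, and 293 had all LMNB2 libraries above all LMNB1 libraries (72.7%, against 15.6% of all features). By the test 153 rose (38.0%, against 1.82% of all features) and none fell. The 1230 other lncRNA intervals of the chromosome had a median of 0.41 and 128 rose. Over ZNF genes on other chromosomes, 8 of 320 rose and the median was 0.08. By host gene, 52 of 129 ZNF genes on chromosome 19 had at least 1 risen interval, and 122 had a median above 0. In LMNB1 the level of these intervals was -0.41, -0.36 and -0.38, in LMNA it averaged -0.45 ± 0.06 and in GFP -0.31 ± 0.06 (SD, n = 3), against 0.35, 0.47 and 0.43 in LMNB2. The LMNB2 libraries were thus the group apart. Leaving out 1 LMNB1 or LMNB2 library left 74 to 107 calls on the whole chromosome, and with 1 interval kept per overlapping group 53 were called.

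ZNF567 stood first among these hosts, with all 12 of its tested intervals risen. LINC01534 over ZNF567 (chromosome 19, 36657466 to 36717648) had 0.459, 0.459 and 0.545 CPM in LMNB1 and 1.40, 1.56 and 1.31 CPM in LMNB2, a log2 fold change of 1.52 ± 0.17 (adjusted p = 0.000142, edgeR). NONHSAG026386.2 over ZNF577 had 0.187, 0.226 and 0.162 CPM in LMNB1 and 0.531, 0.633 and 0.575 CPM in LMNB2 (1.53 ± 0.18, adjusted p = 0.000261, edgeR). lnc-ZNF429-2 rose by 1.47 ± 0.23 and lnc-ZNF417-3, over ZNF587, by 1.36 ± 0.18. Every one of these 4 calls held under each alternative run. The calls were not spread evenly along the chromosome. Between 35 and 40 Mb 93 of 265 features rose (35.1%, against 1.82% of all features), with a median of 0.87. Between 20 and 25 Mb 29 of 90 rose (32.2%, median 0.70). Between 25 and 30 Mb, at the centromere, none of 176 rose by edgeR (none at an unadjusted p below 0.05, median 0.09), and between 30 and 35 Mb none of 76 (6 unadjusted, 0.11). The 176 features fall in only 6 groups of overlapping intervals and the 76 in 22. Between 35 and 40 Mb there were 72 such groups, and between 20 and 25 Mb 19.

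Outside chromosome 19 the most risen lncRNA intervals included NONHSAG037195.2 over ZNF718 on chromosome 4 (0.501, 0.416 and 0.412 against 1.10, 1.23 and 1.31 CPM, 1.43 ± 0.19, adjusted p = 0.000819, edgeR). NONHSAG023148.2 near the end of chromosome 18 rose by 1.66 ± 0.25, and AP006621.4 over EPS8L2 on chromosome 11 by 1.53 ± 0.26. Of the SRP RNA-like intervals, lnc-BCOR-8 on the X chromosome rose from 0.676, 0.716 and 0.713 to 1.60, 1.46 and 1.56 CPM (1.12 ± 0.15, adjusted p = 0.00102, edgeR). These calls held without any 1 library, except that of AP006621.4, lost in 2 of 12.

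**Figure D4:**
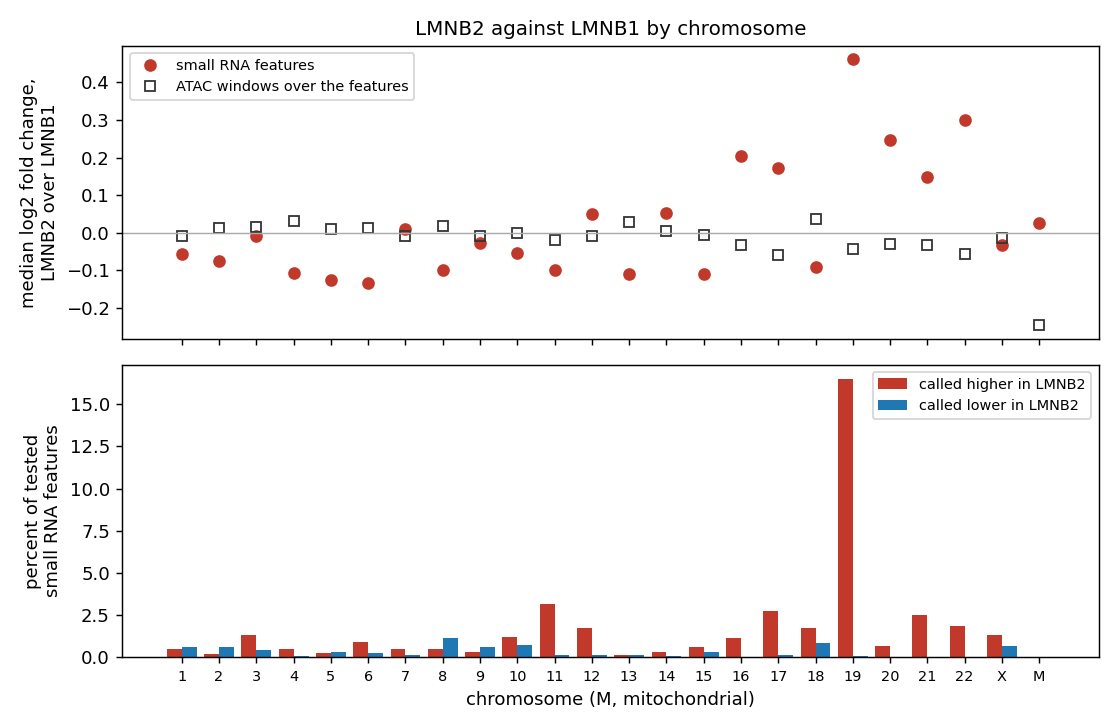
By chromosome (x axis, without chromosome Y), the median log2 fold change of LMNB2 over LMNB1 in small RNA and in ATAC-seq, and the percent of tested small RNA features called higher and lower. Features over the lamin genes are left out of the small RNA medians but kept in the percentages. Chromosome 19 has the highest small RNA median, 0.46, and the highest share of calls, while its ATAC-seq median lies close to those of the other nuclear chromosomes.

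Several of the intervals that fell most in LMNB2 lie over genes induced by interferon, a set listed only after the values were seen. lnc-ADGRL4-6 over IFI44L (chromosome 1, 78568670 to 78664103) had 0.356, 0.441 and 0.435 CPM in LMNB1 and 0.0784, 0.0768 and 0.0213 CPM in LMNB2. Its log2 fold change was -2.54 ± 0.33 (adjusted p = 0.000772, edgeR), on counts of 59, 72 and 75 against 13, 12 and 3. NONHSAG036310.2 over PLSCR1, a phospholipid scramblase with antiviral activity, had 0.374, 0.300 and 0.331 CPM in LMNB1 and 0.0784, 0.096 and 0.135 CPM in LMNB2 (-1.60 ± 0.27, adjusted p = 0.00524, edgeR). AC004551.2 over OAS3, which makes the activator of RNase L, had 0.501, 0.404 and 0.499 CPM in LMNB1 and 0.223, 0.154 and 0.142 CPM in LMNB2 (-1.37 ± 0.19, adjusted p = 0.00139, edgeR). In all 3 the groups do not overlap. lnc-EPSTI1-4 over EPSTI1 fell by 1.48 ± 0.32 (adjusted p = 0.0234, edgeR), a call lost in 5 of the 12 fits without 1 library.

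Of 64 interferon-stimulated genes listed, 22 were the host, by longest overlap, of a tested interval, 62 intervals in all. Of these, 52 were lower, with a median of -0.63, and 37 had all LMNB2 libraries below all LMNB1 libraries (59.7%, against 14.1% of all features). By the test 13 fell and 1 rose (0.366% and 1.82% of all features), and of the 13, 5 are overlapping intervals at PLSCR1 and 3 at B2M. A fallen interval was found at 7 hosts, among them B2M, EPSTI1, IFI44L, OAS3, PLSCR1 and SPATS2L, and NONHSAG022953.2 over RNF213 rose by 0.84. Relative to the mean of the 6 libraries compared, the median level was 0.30, 0.31 and 0.37 in LMNB1 and -0.30, -0.23 and -0.27 in LMNB2. It was -0.05 ± 0.06 in LMNA and -0.22 ± 0.14 in GFP (SD, n = 3). The LMNB2 level was therefore close to that of GFP and below that of LMNA, and LMNB1 was the group apart, above the other 3.

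Promoters of these genes are shown because a motif of interferon regulatory factors, GAAANNGAAA, is found in them. The stretches come from RefSeq (GRCh38.p14), 5′ to 3′ on the gene's strand, with the motif in capitals.
IFI44L, chr1:78620264-78620313, plus strand: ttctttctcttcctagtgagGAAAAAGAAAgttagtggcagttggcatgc
OAS3, chr12:112938311-112938360, plus strand: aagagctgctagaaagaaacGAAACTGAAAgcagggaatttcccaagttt
PLSCR1, chr3:146544657-146544706, minus strand: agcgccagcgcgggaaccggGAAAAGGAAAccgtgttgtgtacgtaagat
EPSTI1, chr13:42992262-42992311, minus strand: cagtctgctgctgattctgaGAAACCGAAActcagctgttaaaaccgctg
B2M, chr15:44711353-44711402, plus strand: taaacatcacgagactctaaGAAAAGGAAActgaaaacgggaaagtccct
The motif was searched on both strands within 250 bases upstream of the start, and overlapping matches were kept, as in B2M, where a second match starts within the first. It was present in 839 of 27305 promoters (3.07%), in 125 of 5253 promoters of genes hosting a tested lncRNA interval (2.38%), in 6 of 36 promoters of genes hosting a fallen one (16.7%) and in 3 of 141 of genes hosting a risen one (2.13%). These matches describe the letters only, and the motif was chosen after the values were seen.

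Other fallen intervals have a host gene that is not on that list. The host is the protein-coding gene of longest overlap, so further genes under a long interval, listed or not, are not named. lnc-TFAP2A-3 over TFAP2A, a factor of neural crest and epidermis, had 1.11, 1.14 and 0.748 CPM in LMNB1 and 0.199, 0.224 and 0.256 CPM in LMNB2 (-2.09 ± 0.21, adjusted p = 3.26e-05, edgeR). Its level was 0.227 CPM in GFP and 0.296 CPM in LMNA, so LMNB1 was the group apart. lnc-CH25H-2, an interval of 65059 bases with LIPA as its host, had 0.435, 0.471 and 0.568 CPM in LMNB1. In LMNB2 it had 0.157, 0.134 and 0.121 CPM (-1.74 ± 0.21, adjusted p = 0.000428, edgeR), and it averaged 0.131 CPM in GFP and 0.274 CPM in LMNA. Whether its reads come from LIPA or from another gene under the interval was not tested. lnc-PJVK-2 over PRKRA, an activator of the kinase PKR, fell by 1.12 ± 0.20 and lnc-FAM124B-1 over CUL3 by 1.09 ± 0.25, calls lost in 3 and 5 of 12 fits without 1 library.

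**Figure D5:**
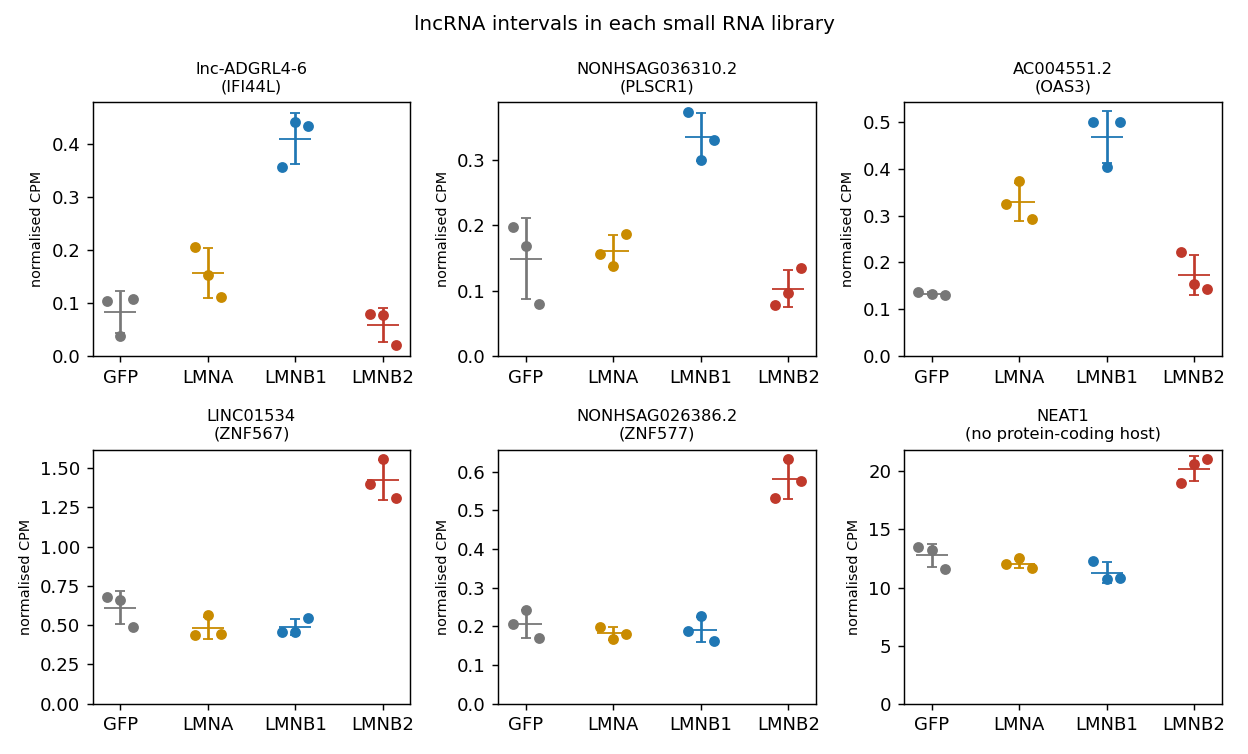
CPM of 6 lncRNA intervals in the 12 small RNA libraries by group; points are libraries, bars the mean and SD of 3. The intervals over IFI44L, PLSCR1 and OAS3 are highest in LMNB1, while LINC01534, the interval over ZNF577 and NEAT1 are highest in LMNB2.

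Of 40 tested noncoding RNAs on a list of well-known species, NEAT1 alone was called (4 higher and 6 lower at an unadjusted p below 0.05, edgeR). Of the 40, 10 had LMNB2 wholly above LMNB1 and 18 wholly below. Over all features 2.19% were called, 9.78% were higher and 6.23% lower unadjusted, and 15.6% lay wholly above and 14.1% wholly below. The list includes microRNAs, a class with 58.5% wholly below. NEAT1, the scaffold of paraspeckles, had 12.3, 10.7 and 10.8 CPM in LMNB1 and 19, 20.6 and 21.1 CPM in LMNB2 (0.84 ± 0.19, adjusted p = 0.0252, edgeR), and it averaged 12.8 CPM in GFP and 12.1 CPM in LMNA. The groups do not overlap, but the call was lost in 6 of the 12 fits without 1 library. Its neighbour MALAT1, of nuclear speckles, had 11.3, 10.7 and 11.2 against 12.6, 13.3 and 14.0 CPM (0.27 ± 0.18, adjusted p = 0.495, edgeR). The snoRNA host genes GAS5 and SNHG1 both had a log2 fold change of -0.23, with adjusted p = 0.768.

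The make-up of the libraries differed too. Other rRNA took 11.74%, 11.34% and 11.29% of counts in LMNB2 and 7.977%, 8.8% and 7.947% in LMNB1, a difference of 3.22 percentage points, and lncRNA intervals took 3.31 points less in LMNB2 (78.67% ± 0.53 against 81.98% ± 0.67, SD, n = 3). MicroRNA outside the lamin genes took 0.152% ± 0.0119 in LMNB2 and 0.185% ± 0.00176 in LMNB1. For each of these 3 the groups did not overlap, which gives the exact two-sided permutation p of 0.1, the smallest that 3 against 3 allows, and 0.172 adjusted over 31 comparisons. Nuclear tRNA took 1.143% ± 0.0961 in LMNB2 and 1.183% ± 0.0117 in LMNB1 (exact permutation p = 0.7), and without LMNB2 replicate 2 the difference was 0.0112 points in the other direction.

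ATAC-seq libraries of the same 4 groups, collected separately, gave an independent readout at windows over the same features, with total window counts of 233309828 to 280534726 in LMNB1 and 245216372 to 290158229 in LMNB2. Of 163786 windows 5 were called between LMNB2 and LMNB1 (0.00305%, and 8159 or 4.98% at an unadjusted p below 0.05, edgeR), and all 5 lie over the LMNB1 or LMNB2 locus. Other windows over LMNB2 were not called despite a large gap. That of NONHSAG024437.2 averaged 51.0 CPM in LMNB1 and 41500 CPM in LMNB2 (log2 fold change 9.67 ± 1.05, adjusted p = 0.324, edgeR). Reads of an introduced LMNB1 or LMNB2 sequence cannot be told from those of the gene's own locus in these windows. The gaps at the lamin loci therefore do not show a change in accessibility. Since so large a gap went uncalled, a missing ATAC-seq call does not show that accessibility was unchanged either. At the 603 windows of features that rose in small RNA outside the lamin genes, none was called, the median log2 fold change was -0.04, and 28.4% were higher in LMNB2, against 40.1% of the windows over all tested features. At the 120 windows of features that fell, none was called, the median was 0.06 and 71.7% were higher. At the 285 windows of risen features on chromosome 19 the median was -0.01 and 41.4% were higher, against 35.3% of the windows over all tested features of that chromosome. Over all tested features the median was -0.02, and over those of chromosome 19 it was -0.03.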

How the data were processed

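The authors deposited raw counts per annotated noncoding interval for 12 small RNA libraries and for 12 ATAC-seq libraries (windows at the same intervals). The submitters' processing notes name the GRCh38 build. The aligner, the counter, the use of strand and the treatment of reads matching several places are not given in the sources used here, so counts of near-identical copies and of overlapping intervals are not independent. Over LMNB2, plus-strand lnc-GADD45B-1 held 56410, 59773 and 51886 counts in the LMNB2 libraries. Minus-strand lnc-TIMM13-1 held 56403, 59755 and 51878, so the counts there did not separate the strands. PCR duplicates cannot be told from molecules, and precision covers counting and library spread only.

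Counts were tested with edgeR 4.0.16 (R 4.3.3): filterByExpr, TMM scaling, robust quasi-likelihood fit of all 12 libraries of an assay with a mean per group, contrast LMNB2 minus LMNB1, Benjamini-Hochberg adjustment over all tested features, and a call below 0.05. Log2 fold changes use a prior count of 2, and CPM are counts scaled to library size with TMM factors. A prior count pulls the fold changes of sparse intervals towards 0. Levels are log2 CPM with the same prior count. Shares were compared by exact two-sided permutation of 3 against 3. A seeded simulation used the 33893 features of this comparison, gave each the same spread (coefficient of variation 0.2) and changed features drawn at random. In it, 2 of 67 features changed 1.5-fold, 11 of 67 changed 2-fold and 52 of 66 changed 4-fold were called, with 3 false calls. A missing call thus says little about changes below 4-fold, though the share called can differ for features of other abundance or spread.

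Named features were the tested intervals over lamin genes, up to 3 per class and direction (8 for lncRNA) among non-overlapping calls, 40 listed RNAs, and the extreme tRNA families. Further microRNA arms, the ZNF and interferon groups, the 5 Mb windows and the promoter motif were chosen after values were seen. All members and lists were chosen with earlier results of these data known. Of 5142 microRNA intervals, 1692 matched a RefSeq mature arm and 619 a hairpin, each extended by 25 bases with a tolerance of 3. Replicate numbers in the labels were checked for pairing. Alternatives were DESeq2 1.42.0, other scalings and filters, other sets of libraries, a replicate block, stricter thresholds, each library left out and overlapping intervals reduced to 1.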

Additional observations from a re-analysis of the deposited data

How the results depend on the processing

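The count of 742 calls was 61 with scaling to total counts, 4638 with the 6 compared libraries alone, 3172 with the 9 lamin libraries, 76 without lncRNA features, 155 with 1 feature per overlapping group, 149 at an adjusted p below 0.01 and 373 when a 2-fold difference was also required. Leaving out 1 library gave 144 to 2165. On chromosome 19 the same settings gave 40, 636, 523, 7, 53, 86 and 185 calls, and 74 to 472 without 1 library. Of the 11 calls over lamin genes 4 were left without lncRNA features and 2 with 1 feature per group. For ATAC-seq the 5 calls became 3 with 6 libraries and 8 without LMNB1 replicate 3. The replicate numbers did not pair the libraries (correlations of deviations -0.01, 0.03 and 0.01), and a fit with the replicate block called 577 features, 481 higher and 96 lower.

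Class medians kept their sign where they exceeded the spread between replicates, with these moves. Without the count filter microRNA went to 0, other rRNA to 0.20 and scaRNA to 0.16. With total counts C/D snoRNA went to 0.10, 7SL to 0.53 and lncRNA to 0.07. Without lncRNA features C/D snoRNA went to 0.09 and 7SL to 0.52. With 1 feature per group C/D snoRNA went to 0.11, U6 to 0.31 and Y RNA to 0.05, and with a mean of at least 10 counts lncRNA went to -0.02. Without 1 library SNAR ranged from -0.87 to -0.20, 7SL from 0.40 to 0.53, scaRNA from 0.14 to 0.27 and lncRNA from -0.01 to 0.01. The difference in the share of nuclear tRNA, -0.0399 points, ranged from -0.0843 without LMNB2 replicate 1 to 0.0112 without LMNB2 replicate 2. The causes were not tested. Of 62 called features named by rule or in a later list, 23 kept their call under every setting.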
